A study of Mus musculus with 4 samples.

Results

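LYVE1-positive macrophages were a small population of human macrophages found in breast cancer xenografts of humanized mice. LYVE1, a receptor for hyaluronan, is best known from lymphatic endothelium and also marks macrophages that live in tissues beside vessels and in fat. Such tissue macrophages are known for uptake of debris and of plasma proteins by scavenger receptors, for handling of iron and heme, and for long residence, in contrast to macrophages that have recently arisen from blood monocytes. FOLR2 (folate receptor beta) and the transcription factor MAF are often seen with LYVE1, and CCL18 is a human chemokine linked to alternatively activated macrophages.

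Human CD45+ leukocytes sorted from orthotopic tumors were profiled by 3′ single-cell RNA-seq in 2 droplet reactions. The tumors grew from MDA-MB-231, an established human breast carcinoma cell line, in MISTRG mice, which express human M-CSF, GM-CSF and IL-3 and had been engrafted with human fetal CD34+ progenitors, so that every group shared the tumor line, the host strain and the kind of graft. There were 7 untreated mice and 7 mice given drinking water with 300 mg/l of the drug maraviroc. Dosing began on day 21 and lasted 10 days, and the tumors were taken on day 31. Every mouse carried its own hashtag antibody. Reaction 1 held 4 untreated and 3 maraviroc mice, and reaction 2 held 3 untreated and 4 maraviroc mice. The model holds 1 tumor line, and the mice supply human forms of only some of the factors on which human macrophages depend.

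The LYVE1-positive macrophages were selected on measured counts of unique transcript molecules (UMIs) and were not obtained by clustering. A cell was a member when the complement C1q genes C1QA, C1QB and C1QC summed to at least 5 UMIs, when LYVE1 had at least 2 UMIs, and when the cell was low for the markers of other macrophage states and of T cells. The limits were at most 9 UMIs of CXCL10, 3 of IL1A and CCL20, 3 of the hypoxia genes SLC2A1, HILPDA and ADM, 3 of the metallothioneins MT1G and MT1H, 2 of the proliferation genes TOP2A and MKI67, and 1 of CD3D, CD3G and TRAC. There were 196 members, 72 in reaction 1 and 124 in reaction 2, among 16327 cells that passed the filters and 42702 deposited barcodes. They made up 5.27% of the 3718 macrophages that met every other limit and 1.20% of all filtered cells. The levels of these rule genes are a description of the choice and carry no test.

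Most members lay well inside the C1q limit, and many lay close to the LYVE1 limit. Their C1q sum ranged from 6 to 222 UMIs with a median of 43.5. LYVE1 had a median of 6 UMIs and a maximum of 59, with 40 cells at exactly 2 UMIs, just inside the limit, and 24 cells at 3. Just outside it, 106 macrophages met every other limit with 1 LYVE1 UMI. A further 98 filtered cells had at least 2 LYVE1 UMIs but failed another limit, most often that on proliferation (33 cells) and that on metallothioneins (21 cells).

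LYVE1 transcripts were rare in T or NK cells and in monocytes that were chosen for little or no C1q. The T or NK cells had no C1q UMI and at least 5 UMIs of their own markers. The monocytes had at most 1 C1q UMI and at least 2 of S100A12. This choice leaves out cells that carry more macrophage RNA, so low LYVE1 shares were partly built in. At least 2 LYVE1 UMIs were found in 1 of 1098 T or NK cells of reaction 1 (0.0911%, 95% exact binomial interval 0.00230% to 0.506%) at a median depth of 6289.5 UMIs. In reaction 2 the number was 0 of 2027 such cells, which allows a share of up to 0.148% by a limit of 3 counts (95% exact upper bound 0.182%), at a median depth of 7463 UMIs. Among S100A12-positive monocytes it was 0 of 240 and 0 of 507 cells, which allows up to 1.25% and 0.592% by the same limit of 3 counts (exact upper bounds 1.53% and 0.725%). Macrophages that met every other limit reached the LYVE1 minimum in 3.63% of cells in reaction 1 (2.85% to 4.55%) and 7.16% in reaction 2 (5.99% to 8.47%), at median depths of 5572 and 12614 UMIs. At least 1 LYVE1 UMI was found in 0.455% of the T or NK cells of reaction 1 and 0.592% of those of reaction 2. For the monocytes these shares were 1.25% and 1.18%, and for the macrophages 6.20% and 10.3%. The intervals in this paragraph cover counting error only.

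The other marker genes were present in most members. MAF was detected in 192 of the 196 cells, FOLR2 in 188 and CCL18 in 141, and 135 cells had all of these genes, whereas 1 cell had none of them. FOLR2 was found without CCL18 in 50 cells and CCL18 without FOLR2 in 3. CCL18 was uneven, with a median of 7 UMIs, a maximum of 309, and 22.0% of its UMIs in the 5 richest cells. In LYVE1-0 macrophages, which met every other limit and had no LYVE1 UMI, CCL18 was detected in 11.7% of 3416 cells, FOLR2 in 74.5% and MAF in 84.0%. In the 425 macrophages with at least 10 CXCL10 UMIs (CXCL10-high), the shares were 20.7%, 81.2% and 83.8%, so MAF and FOLR2 were common in all of these macrophages. With each cell thinned to 5000 UMIs, CCL18 was found in 65.0% of 180 members and 7.39% of 2504 LYVE1-0 cells, and the other 16 and 912 cells were too shallow to enter. Summed over the T and NK cells, which were chosen without a C1q UMI, CCL18 stood at 4.27 CPM, against 2306 CPM in members. CPM are the UMIs of a gene per 1000000 UMIs of the cells summed. All marker genes were thus found together in 135 members, and MAF and FOLR2 in nearly all.

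Markers of other cell types were at levels that differed from list to list. Among 10 genes of lymphatic endothelium, CCL21, FLT4, KDR and MMRN1 were at 0 UMIs, and PECAM1, which macrophages also express, made up 244 of the summed 270 CPM. PROX1, the master transcription factor of lymphatic endothelium, stood at 16.1 CPM in 24 of the 196 members and at 0.524 in LYVE1-0 cells, a difference that was too low in counts to be tested. The 9 carcinoma genes summed to 22.4 CPM in members and 35.5 in LYVE1-0 cells, and the 6 T cell genes to 249 and 247, of which IL7R was 236 and 219. Genes of plasmacytoid dendritic cells summed to 454 and 437 CPM, with TCF4 at 382 and 317, while CLEC4C and LILRA4 were at 0 UMIs in members. Neutrophil genes summed to 257 and 431 CPM, with MNDA at 211 and 365. Genes of mature dendritic cells summed to 181 and 161 CPM, with FSCN1 at 93.8 and 74.2 and LAMP3 at 0 UMIs in members. The genes of B cells, NK cells and both kinds of conventional dendritic cell summed to between 30.2 and 89.1 CPM in members. Mast cell genes summed to 473 and 93.3 CPM, with HPGDS at 398 and 85.6, and 73.0% of members had at least 1 such UMI against 39.2% of LYVE1-0 cells. TPSAB1, a mast cell tryptase, had 68 UMIs in 4 members, and CPA3 had 48 UMIs in 2 members, so mast transcripts other than HPGDS sat in very few cells. The part of such cells in the results was not tested. No doublet caller was run, the hashtags cannot show a doublet within 1 mouse, and 178 of the 196 members had at least 80% of their hashtag UMIs on 1 hashtag. No member shared its barcode with the other reaction, although 136 barcodes occurred in both.

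Members were deeper than LYVE1-0 macrophages in both reactions, by more in reaction 1. The median was 9172 against 5340.5 UMIs per cell in reaction 1 and 13277.5 against 12520 in reaction 2, and a deeper cell has more chance to show 2 LYVE1 UMIs. Maraviroc mouse 2 of reaction 2 gave 38 of the members, the most of any mouse, and had the highest share among macrophages that met every other limit. The shares and the numbers of called genes are given with and without it, and the levels at each LYVE1 step include it.

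Within the macrophages that met every other limit, the levels of many genes differed in steps with the LYVE1 count of the cell. Summed over cells, CCL18 was at 39.1 CPM in LYVE1-0 cells, 468 in the 106 cells with 1 LYVE1 UMI, 1333 in the 64 cells with 2 or 3, 1767 in the 61 cells with 4 to 9, and 3287 in the 71 cells with 10 or more. FOLR2 moved from 286 to 318, 618, 668 and 806, and MAF from 473 to 535, 593, 709 and 892 over the same steps. MARCO, a scavenger receptor, went from 44.2 to 115, 193, 290 and 534. Within each reaction these genes were at their highest in the cells with 10 or more LYVE1 UMIs, but the lower steps were not in order. In reaction 1 the cells with 0 and 1 LYVE1 UMI were at 356 and 350.2 CPM for FOLR2 and at 467.6 and 466.1 for MAF. From the step of 2 or 3 to that of 4 to 9 LYVE1 UMIs in reaction 1, CCL18 went from 2140.5 to 1507, FOLR2 from 732 to 604 and MARCO from 351 to 336. In reaction 2 MARCO was at 118 with 1 LYVE1 UMI and at 111 with 2 or 3, and CCL18, FOLR2 and MAF were higher at each step.

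SPP1, which encodes osteopontin, differed between the reactions at the low steps and was low in both from 4 LYVE1 UMIs on. In reaction 1 it stood at 14760 CPM with 0 LYVE1 UMIs, 20720 with 1, 12868 with 2 or 3, 4328 with 4 to 9 and 8362 with 10 or more. In reaction 2 the values were 9529, 7076, 10909, 3820 and 3515 at the same steps. Against LYVE1-0 cells, those with 1 LYVE1 UMI were thus higher in reaction 1 and lower in reaction 2, and those with 2 or 3 the reverse. Summed over the reactions, where these differences cancel, SPP1 was at 11603, 11614, 11579, 3946 and 5165. MMP12, macrophage elastase, was at 1048 in LYVE1-0 cells, 1077 at 1, 535 at 2 or 3, 181 at 4 to 9 and 15.5 at 10 or more. TREM2, a lipid receptor of tumor macrophages, was at 87.8, 84.1, 42.5, 7.83 and 7.28 at the same steps. With 1 LYVE1 UMI, TREM2 also differed between the reactions. It was at 174 against 110 in LYVE1-0 cells of reaction 1, and at 39.4 against 73.2 in reaction 2. MMP12 and TREM2, summed over the reactions, were thus low in the cells with 4 or more LYVE1 UMIs. The steps mix mice and depth, and no test was made of them.

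**Figure D1:**
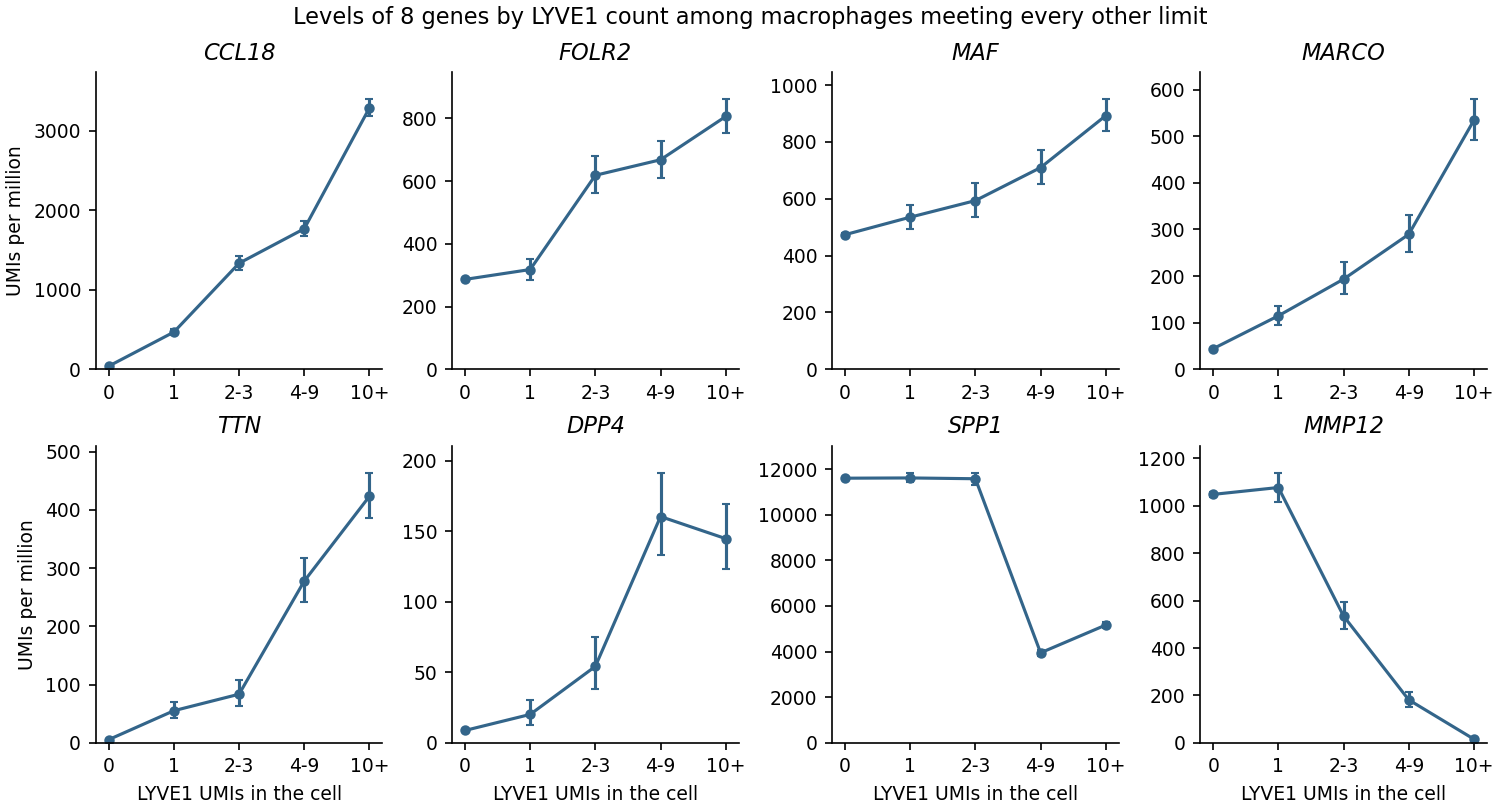
Levels of 8 genes (CPM, summed over cells) against the number of LYVE1 UMIs in the cell, for macrophages that met every other limit, with 95% exact Poisson intervals that cover counting error only. CCL18 goes from 39.1 to 3287 over the steps, whereas SPP1, summed over reactions that differ at the low steps, is at 11603, 11614 and 11579 up to the step of 2 or 3 LYVE1 UMIs and at 3946 and 5165 beyond it.

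The members were compared with LYVE1-0 macrophages of the same mouse to find which genes went with LYVE1. UMIs were summed per mouse on each side in the 9 mice with at least 10 members, and 8991 genes outside the rule were tested with edgeR (quasi-likelihood test with the mouse as a block and Benjamini-Hochberg adjustment, threshold 0.05). In the members 717 genes were higher, 7.97% of those tested, and 802 were lower, 8.92%. Of these, 189 were higher in all 9 mice and 589 lower in all 9. Levels by mouse below are CPM scaled by TMM, and fold changes are on the log2 scale with their standard error (SE). Without maraviroc mouse 2 of reaction 2 the calls were 579 higher and 660 lower of 8805 genes. The mice were separate animals, but the labels do not say how many graft donors there were.

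CCL18, FOLR2 and MAF had been chosen with earlier results known and are given without a test. CCL18 was at 2128 ± 873 (SD, n = 9) in members and 44.5 ± 28.3 in LYVE1-0 cells. By mouse, members ranged from 1002 to 3564, and LYVE1-0 cells from 15.5 to 113, with no overlap. FOLR2 was at 654 ± 180 against 291 ± 72.8, and MAF at 736 ± 112 against 499 ± 69.1 (SD, n = 9 each), both higher in the members of all 9 mice.

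The largest rises were in genes that are not textbook macrophage markers and that were low in LYVE1-0 cells. The filter on counts before the test could be passed by 1 side alone. A gene nearly absent from LYVE1-0 cells could thus enter through the members. The ranking by fold and the lack of overlap given below for such genes are therefore a description. C4BPB, the beta chain of the complement inhibitor C4b-binding protein, was at 92.7 ± 74.7 in members and 1.31 ± 1.16 in LYVE1-0 cells (SD, n = 9; log2 fold change 5.99, SE 0.37, adjusted p = 1.45e-10). Its values in members were 91.7, 55.8, 254 and 56.7 in the mice of reaction 1 and 176, 56.7, 64.8, 13.4 and 65.4 in those of reaction 2, whereas no LYVE1-0 value was above 3.69. TTN, the gene of the muscle protein titin, was at 242 ± 180 against 5.37 ± 3.29 (log2 fold change 5.42, SE 0.32, adjusted p = 8.25e-11), and was detected in 99 of 196 members and 3.66% of LYVE1-0 cells. CCDC141, which lies beside TTN on its chromosome, was at 139 ± 103 against 2.26 ± 1.22 (log2 fold change 5.88). These genes were higher in the members of all 9 mice, without overlap between the groups, as 68 of the 8991 tested genes were (0.756%). Whether reads from introns were counted is not given in the sources used here, and this bears on the levels of long genes such as TTN, NAV2, AUTS2 and PDE4D.

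The other named rises ranged from 3.34 to 4.50 on the log2 scale and were seen in 9 of 9 mice. DPP4, the surface peptidase CD26 that trims chemokines, was at 115 ± 52.8 against 9.36 ± 4.60 (log2 fold change 3.75, SE 0.25, adjusted p = 4.98e-10). By mouse it ranged from 53.4 to 227 in members and from 4.41 to 18.7 in LYVE1-0 cells. CYP1B1, a cytochrome P450 enzyme induced through the aryl hydrocarbon receptor, was at 132 ± 66.9 against 6.41 ± 4.22. NAV2, a neuron navigator gene, AUTS2, a regulator of transcription, MAMDC2, FEZ1, a kinesin adaptor, MPPED2, SCN1A-AS1, an RNA antisense to a sodium channel gene, and the unnamed transcript AC243829.4 completed the list. Without maraviroc mouse 2 of reaction 2, which had the highest level of the maraviroc mice for 5 named genes, the log2 fold changes were 5.73 for C4BPB, 4.12 for NAV2, 3.92 for AC243829.4, 3.50 for DPP4 and 3.28 for SCN1A-AS1, all still past the threshold, and MPPED2 was too low in counts to be tested. Whether the counting kept strands apart is not stated in the sources used here, so the value of SCN1A-AS1 cannot be told apart from its sense partner. In a fit with LYVE1-0 cells matched to the members on UMIs within each mouse, the counts were enough to test 3 of these 12 genes, and NAV2, DPP4 and AUTS2 passed again, with log2 fold changes of 4.65, 3.55 and 4.75.

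**Figure D2:**
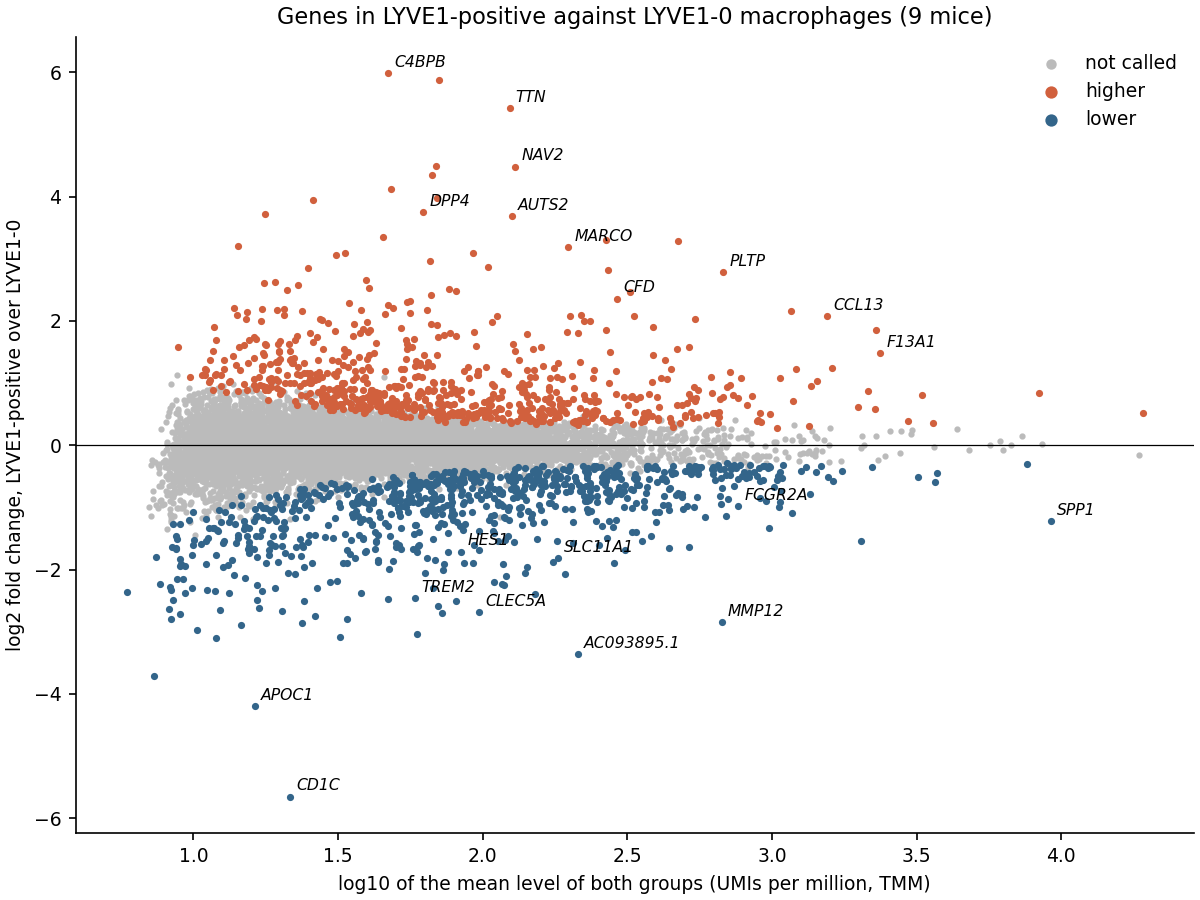
Log2 fold change of each tested gene (members over LYVE1-0 macrophages of the same 9 mice) against the log10 of its mean level in CPM scaled by TMM. Colored points passed an adjusted p of 0.05 in edgeR, 717 higher and 802 lower, and the labels mark named genes and list genes.

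High levels of the leading genes were also measured in LYVE1-positive macrophages that the rule had left out. In the 33 macrophages with at least 2 LYVE1 UMIs that failed the limit on proliferation, TTN was at 172 CPM (95% exact Poisson interval 139 to 210) and CCL18 at 1216, against 4.82 (3.83 to 5.99) and 25.7 in 1178 proliferating macrophages with no LYVE1 UMI. DPP4 was at 79.8 against 7.02, MARCO at 279 against 48.6, and C4BPB at 61.6 against 2.08. MMP12 was at 265 against 731, and TREM2 at 32.6 against 74.2. These are summed values of cells from several mice without a test. Proliferating LYVE1-positive macrophages thus showed values on the same side as the members for each of these genes.

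Among the members themselves the leading genes were found in overlapping but not identical cells. Of the 99 members with TTN, 91.9% also had CCL18 and 73.7% DPP4, and of the 109 with DPP4, 89.9% had CCL18. CCL18 was found in 71.9% of all members. CD5L, a secreted inhibitor of apoptosis in tissue macrophages, was present in 48 members, of which 58.3% had CCL18, and by mouse it ranged from 0 of 17 members in untreated mouse 2 of reaction 1 to 10 of 19 in maraviroc mouse 4 of reaction 2. Depth bears on such shares, as deeper cells show more genes, and its part was not tested.

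Genes of resident macrophages were mostly higher in the members. Of 16 tested genes of this list, 12 were higher and 1 was lower, with a median log2 fold change of 0.80, against -0.01 over all tested genes. The lists were written with earlier results of these data known, so their direction is not independent evidence. PLTP, the phospholipid transfer protein, was at 1169 ± 222 against 190 ± 42.4 (SD, n = 9; log2 fold change 2.79, SE 0.12, adjusted p = 9.27e-13). By mouse it ranged from 802 to 1560 in members and from 142 to 262 in LYVE1-0 cells. F13A1, coagulation factor XIII A, was at 3393 ± 658 against 1350 ± 242 (1.48, SE 0.13), and LILRB5, an inhibitory receptor, at 345 ± 75.0 against 90.7 ± 12.6 (2.10, SE 0.13). SELENOP, the selenium carrier, ranged from 572 to 1487 in members and from 161 to 346 in LYVE1-0 cells. RNASE1 did not pass the test (3105 ± 692 against 2979 ± 909, adjusted p = 0.211). HES1, a target of Notch signaling, was the gene that fell, from 134 ± 26.2 to 34.3 ± 20.7. TIMD4 and IGF1, too low to be tested, were summed at 19.6 and 89.1 CPM in members and 1.57 and 4.57 in LYVE1-0 cells, but TIMD4 was also at 13.7 in T and NK cells.

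Scavenger and endocytic receptors followed with 10 of 16 tested genes higher and 2 lower (median log2 fold change 0.53). MARCO was at 351 ± 190 against 43.6 ± 21.6 (3.18, SE 0.22, adjusted p = 6.64e-10), and CD36, a receptor for fatty acids and oxidized lipoproteins, at 539 ± 206 against 105 ± 31.5 (2.47, SE 0.16). The mannose receptor MRC1, abundant on both sides, was at 2305 ± 517 against 1656 ± 219 (0.61, SE 0.11), and FCGRT, the neonatal Fc receptor, at 881 ± 181 against 516 ± 111. MSR1, scavenger receptor A, and CLEC7A, the beta-glucan receptor dectin-1, went the other way. MSR1 fell from 316 ± 63.9 to 94.8 ± 52.4 and was lower in the members of 9 of 9 mice. The scavenger receptors therefore did not move as a block.

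Iron and heme genes showed 7 of 11 tested genes higher and 1 lower (median 0.75). The iron exporter SLC40A1 was at 681 ± 269 against 255 ± 69.6 (1.55, SE 0.17, adjusted p = 5.42e-07). Ferritin light chain FTL was at 21855 ± 8193 against 16494 ± 3851 (0.51, SE 0.13), and the hemoglobin scavenger receptor CD163 at 766 ± 157 against 475 ± 70.2. BLVRB and BLVRA, which act in heme breakdown, were higher by 1.45 and 0.89. FTH1 did not pass (0.15, adjusted p = 0.625). SLC11A1, an exporter of metal ions from phagosomes, fell by 1.82 (SE 0.17).

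Complement genes outside C1q were also higher, in 5 of 10 tested genes with 1 lower (median 0.71). CFD, complement factor D, was at 478 ± 181 against 106 ± 37.5 (2.36, SE 0.19, adjusted p = 8.03e-09). By mouse it ranged from 160 to 736 in members and from 58.5 to 173 in LYVE1-0 cells, so that 1 member value lay below the highest LYVE1-0 value, although members were higher within each of the 9 mice. CR1, a complement receptor, was at 296 ± 95.8 against 96.0 ± 41.0, and CFP, properdin, at 48.5 ± 20.5 against 22.7 ± 16.0. ITGAX, the integrin CD11c, fell from 175 ± 41.1 to 51.7 ± 45.6.

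Lysosomal genes were mixed, with 5 of 17 higher and 3 lower (median 0.14). CTSL was at 774 ± 442 against 262 ± 54.2 (1.58, SE 0.19), LGMN at 1646 ± 422 against 773 ± 130, and CTSZ at 1865 ± 399 against 995 ± 91.3, all of them lysosomal proteases. CTSB did not pass (2074 ± 616 against 2035 ± 155). Of the genes for engulfment of dying cells, 4 of 12 were higher and 4 lower. GAS6 and PROS1, the bridging ligands, were higher by 1.08 and 0.94, as were the receptors STAB1 and CD36, while MERTK and AXL, receptors for these ligands, fell by 1.08 and 1.31.

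**Figure D3:**
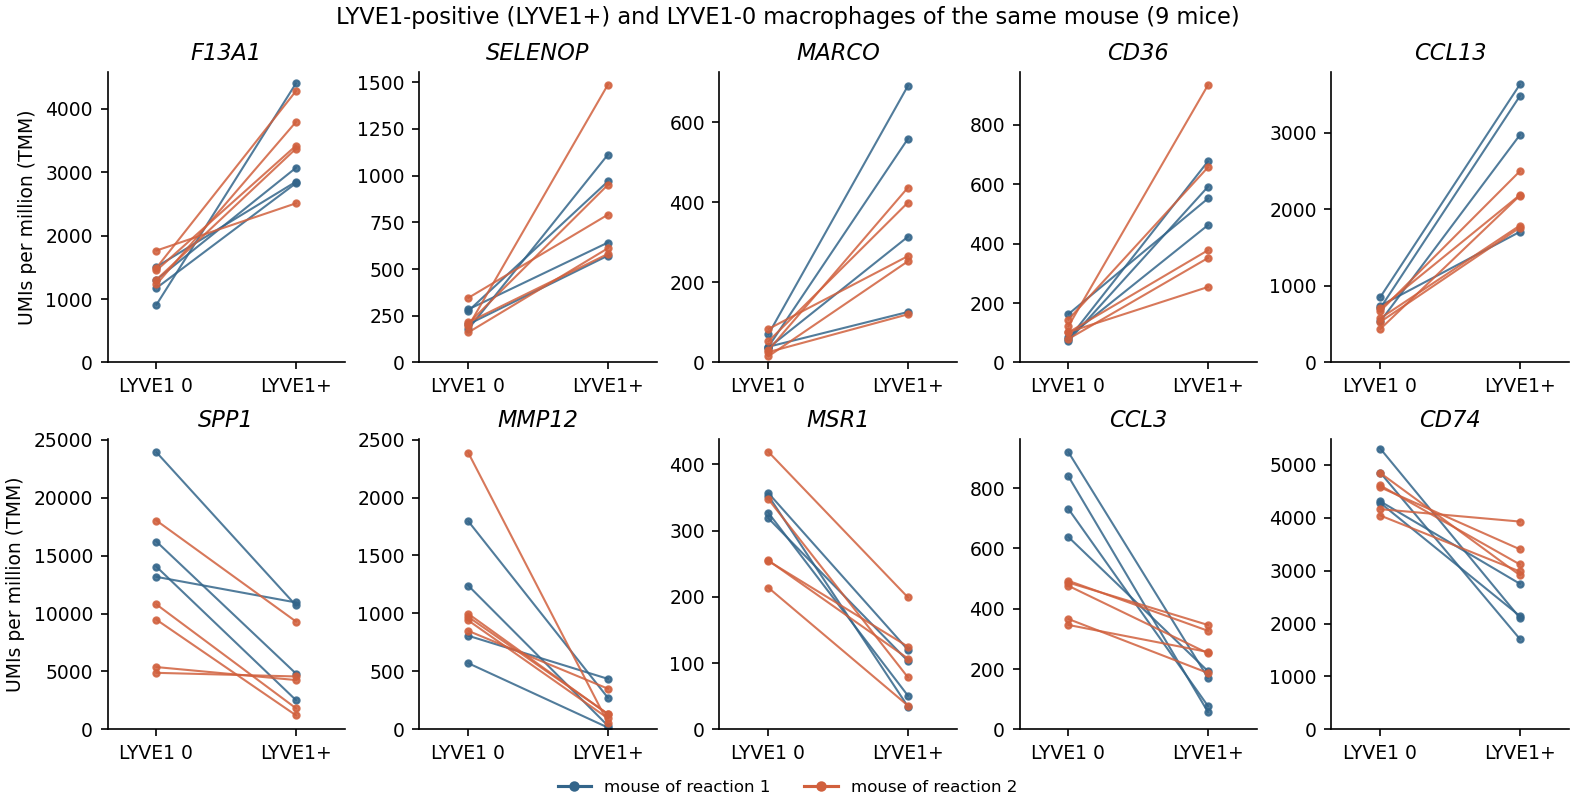
Levels of 10 genes (CPM scaled by TMM) in LYVE1-0 and LYVE1-positive macrophages, each line 1 of 9 mice, colored by reaction. F13A1, SELENOP, MARCO, CD36 and CCL13 are higher in the LYVE1-positive cells of all 9 mice, and SPP1, MMP12, MSR1, CCL3 and CD74 are lower in all 9.

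Of 17 chemokine genes tested, 4 were higher and 8 lower (median -0.43). CCL13, a ligand of CCR2 and CCR3, was at 2469 ± 736 against 641 ± 130 (2.08, SE 0.12, adjusted p = 1.10e-10). CCL2, which attracts monocytes, was at 1162 ± 693 against 812 ± 189 (0.50, SE 0.16, adjusted p = 0.0333) and higher in 5 of 9 mice. CCL7 and CCL23 were the other genes that rose. Among those that fell, CCL3 was at 207 ± 99.6 against 589 ± 205 (-1.23, SE 0.24), CCL4 at 259 ± 173 against 579 ± 271, and CCL5 at 35.6 ± 32.0 against 88.5 ± 51.5. CCL3L1 and CCL4L2 fell by 2.70 and 2.11, but they are near-identical copies of CCL3 and CCL4 with which they may share reads. By mouse, CCL3 ranged from 57.3 to 346 in members and from 346 to 920 in LYVE1-0 cells.

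Of the chemokine receptors described, the monocyte receptor CCR2 fell from 14.5 ± 3.17 to 4.24 ± 3.82, and CCR1 rose from 132 ± 15.2 to 198 ± 52.5.

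Monocyte genes were lower in 9 of 13 tested genes and higher in none (median -0.82). S100A9 was at 1295 ± 648 against 1965 ± 400 (-0.57, SE 0.17, adjusted p = 0.0190) and S100A12 at 4.60 ± 10.8 against 15.4 ± 5.75. CD14 did not pass (1500 ± 358 against 1651 ± 286). Genes of the NF-kB inflammatory response had 7 of 15 lower and 1 higher. CXCL8, a neutrophil attractant, was at 629 ± 263 against 1281 ± 310, and IL1R2 and EREG fell by 1.78 and 1.72. ICAM1 was the gene that rose.

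Lipid-associated genes, which mark foamy and TREM2-positive macrophages, were lower in 8 of 15 tested genes and higher in 2 (median -0.62). SPP1, the most abundant of them, was at 5572 ± 3792 against 12881 ± 6100 (-1.22, SE 0.25, adjusted p = 0.00101). By mouse it was 4814, 10957, 10700 and 2520 in the members of reaction 1 and 4255, 4567, 1818, 1209 and 9310 in those of reaction 2, each below the LYVE1-0 value of the same mouse, which ranged from 4880 to 23934, so that the groups overlapped across mice. TREM2 was at 16.2 ± 13.4 against 101 ± 42.9, and the apolipoproteins APOC1 and APOE fell by 4.199 and 2.66. NPC2, a lysosomal cholesterol carrier, rose by 0.36. Hypoxia and glycolysis genes outside the rule were lower in 7 of 10, with EGLN3 and NDRG1 at log2 fold changes of -2.35 and -1.11.

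MHC class II genes were lower in 8 of 12 tested genes and higher in none (median -0.54). CD74, the invariant chain, was at 2784 ± 697 against 4554 ± 402 (-0.59, SE 0.12, adjusted p = 0.00135), lower in 9 of 9 mice, and ranged from 1708 to 3927 in members and from 4042 to 5307 in LYVE1-0 cells without overlap, as 231 of the tested genes did on the lower side (2.57%). HLA-DRA was at 3014 ± 1069 against 4410 ± 875. Of the Fc receptor genes described, FCGR2A was lower, at 479 ± 103 against 1050 ± 170, as was FCGR1A, at 40.2 ± 22.7 against 94.1 ± 13.8. FCER1G did not pass (1006 ± 200 against 1211 ± 215, edgeR adjusted p = 0.546), and FCGRT was higher, as given above. The inhibitory FCGR2B was at 137 ± 44.3 against 89.1 ± 23.1. The receptor of GM-CSF, CSF2RA, fell from 364 ± 57.0 to 179 ± 47.9, and the M-CSF receptor CSF1R did not pass (318 ± 27.0 against 300.3 ± 20.03). The host mice express both of these cytokines in their human form. Growth factor receptors were lower in 5 of 11 and higher in none.

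Of 20 tested transcription factors, 4 were higher, among them EGR1, KLF2 and KLF4, and IRF8 was lower. Over all 8991 tested genes 7.97% were higher and 8.92% lower, the shares to set beside the counts of each list. EGR1 was at 233 ± 144 against 84.0 ± 15.9 (1.58, SE 0.18) and KLF2 at 193 ± 66.9 against 92.3 ± 30.5, while ZEB2 and KLF6, the most abundant of them, did not pass. The heat shock list had 0 of 7 genes higher and 2 lower. Growth factors were lower in 6 of 12, with PDGFC as the gene that rose (330 ± 142 against 156 ± 32.8, adjusted p = 8.89e-07). Genes of alternative activation were higher in 5 of 11 and lower in 2, and glucocorticoid targets higher in 2 of 10 and lower in 1. The hyaluronan and matrix list had 0 of 10 genes higher and 3 lower, among them MMP12 (169 ± 149 against 1173 ± 569, adjusted p = 1.60e-06) and FN1. CD44, the other main hyaluronan receptor of leukocytes, did not pass (1127 ± 383 against 1367 ± 356). The interferon response was higher in 2 of 19 and lower in 3, and 0 of 4 metallothioneins and 0 of 5 further cycling genes passed.

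**Figure D4:**
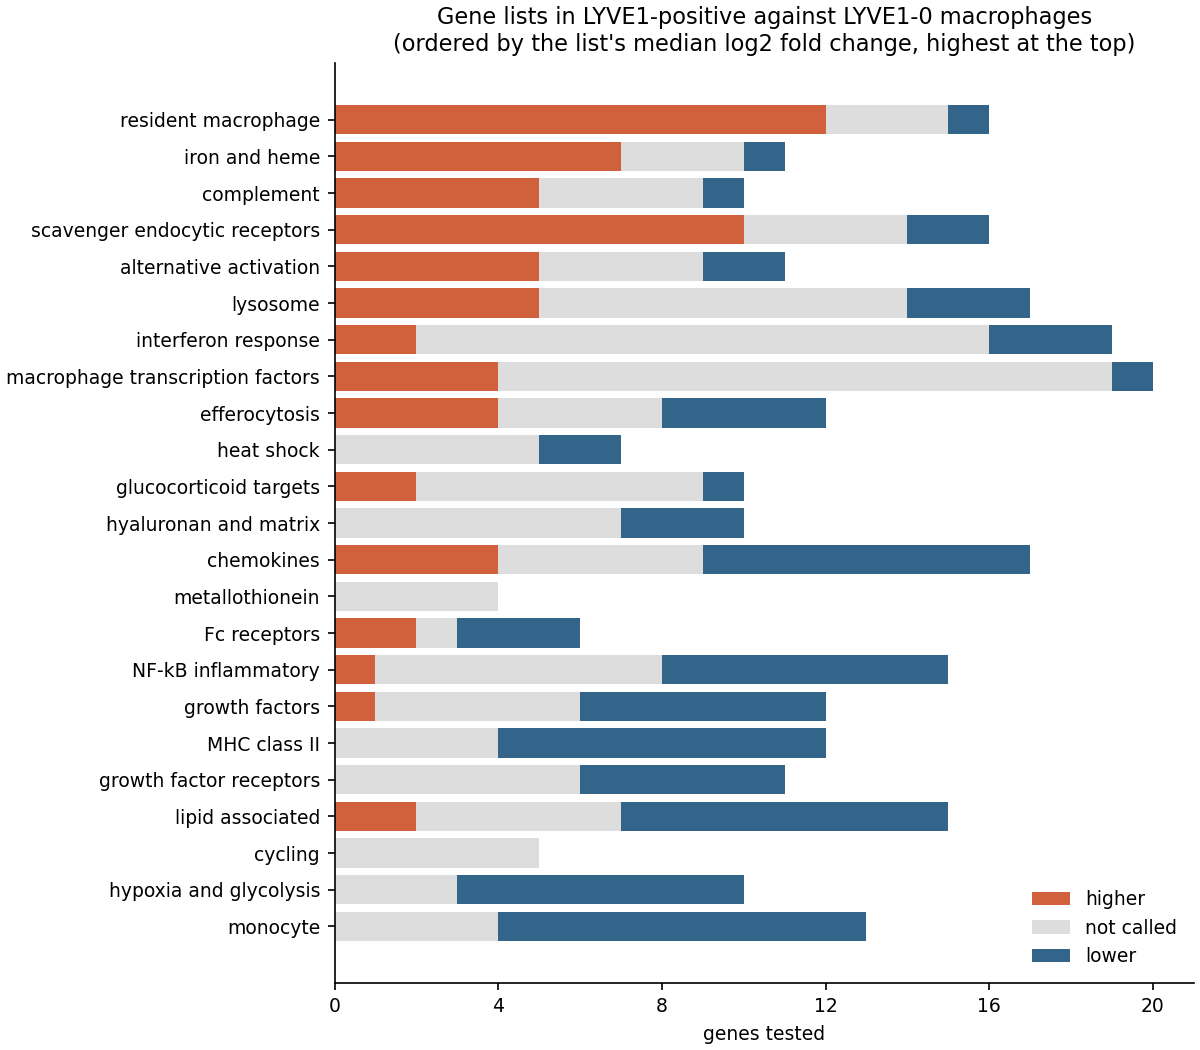
Number of genes higher, lower and not called in members against LYVE1-0 macrophages (edgeR, adjusted p under 0.05, 9 mice), for the lists described here that had at least 4 tested genes, apart from those of other cell types, ordered by the list's median log2 fold change. The resident macrophage list stands at the top with 12 of 16 genes higher, and the monocyte list at the bottom with 9 of 13 lower.

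Among the largest falls, CD1C, a lipid antigen presenter of dendritic cells, was at 0.709 ± 1.41 in members and 42.5 ± 32.1 in LYVE1-0 cells (log2 fold change -5.65, SE 0.51, adjusted p = 4.42e-08), and was at 0 in the members of 7 of the 9 mice. Over all 196 members it had 17 UMIs in 3 cells, each with 2 or 3 LYVE1 UMIs, and 15 of the 17 came from 1 cell. A mean of 0.709 is too low to hold that cell, which thus came from a mouse outside the 9 tested. Summed over all members, CD1C was at 6.67 CPM against 39.9 in LYVE1-0 cells, a smaller gap than in the test. C15orf48, a mitochondrial protein gene induced in inflammation, fell from 107 ± 29.1 to 11.1 ± 8.13, and CLEC5A, an activating receptor, from 170 ± 37.3 to 23.9 ± 17.9. AHRR, the repressor of the aryl hydrocarbon receptor, fell by 2.89 (SE 0.40). MRC2, MARCKSL1, ABI3, the cytotoxic gene GZMB and the unnamed transcript AC093895.1 fell as well, with log2 fold changes of -3.099, -2.86, -2.79, -2.75 and -3.36. Without maraviroc mouse 2 of reaction 2 the log2 fold change was -4.90 for CD1C and -5.05 for MRC2. GZMB fell with GNLY and NKG7, genes of NK cells, which summed with the 5 others of their list to 89.1 CPM in members and 324 in LYVE1-0 cells. The part of NK cell RNA in these values was not tested.

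Among the remaining genes of other cell types, HPGDS, which resident macrophages share with mast cells, was higher (354 ± 217 against 93.9 ± 34.2, log2 fold change 2.005), as were CLEC10A, FSCN1 and PECAM1. MNDA and CSF3R were lower. The B cell gene BANK1, the T cell gene IL7R, TCF4 and BATF3 did not pass, and the 9 carcinoma genes were too low to be tested.

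The direction of the calls was mostly the same in the separate mice of both reactions. Of 301 genes called higher in the 4 mice of reaction 1, 278 could be tested in the 5 mice of reaction 2, where 99.6% of them were on the higher side, against 49.96% of all genes tested there. Of the genes called higher in reaction 2, 518 could be tested in reaction 1. There 91.7% were on the higher side, against 48.4% of all genes. Called in both were 221, which is 73.4% of the higher genes of reaction 1 and 40.3% of the 549 of reaction 2. Of 368 genes lower in reaction 1, 256 were also called in reaction 2 (69.6%, and 50.8% of the 504 there). On the lower side were 97.5% of the lower genes of reaction 1 tested in reaction 2, against 50.04% of all genes. The reverse gave 98.4%, against 51.6% of all genes.

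The members were also set against 425 CXCL10-high macrophages, which had at least 10 CXCL10 UMIs and had been kept out of the members by the rule. Of these cells, 19 had a LYVE1 UMI, with up to 43 in a cell, and 3 cells of reaction 1 and 8 of reaction 2 had at least 2, so the comparison side holds some LYVE1-positive cells. In the 8 mice with at least 10 cells on both sides, 412 of 4656 tested genes were higher in members, 8.85%, and 460 were lower, 9.88%. Without maraviroc mouse 2 of reaction 2 the calls were 303 and 383 of 4400 genes. The interferon genes were lower in 18 of 20 tested genes with a median log2 fold change of -1.90 against 0.02 over all genes, but the CXCL10 count that chose the comparison cells fixes that direction, and CXCL11 (-7.68), CXCL9 (-5.93), GBP4, GBP5, ANKRD22, IFIT1, IFIT2, ISG20 and CCL8 belong with it. The fold changes below share the members with the comparison above.

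Away from the interferon genes, TTN was at 228 ± 189 in members against 12.1 ± 13.1 (SD, n = 8; log2 fold change 4.30, SE 0.38, adjusted p = 3.57e-07) and PDE4D, a cyclic AMP phosphodiesterase, at 809 ± 415 against 79.98 ± 72.9 (3.58, SE 0.24). MARCO was at 358 ± 202 against 40.7 ± 29.7 and CD36 at 538 ± 229 against 80.5 ± 44.3. CCDC141, AUTS2, CYP1B1, NAV2, DPP4, SCN1A-AS1 and the endocytic genes DNM1 and STON2 were the other largest rises, each in 8 of 8 mice. Resident macrophage genes were higher in 11 of 16 and lower in 1 (median 0.86), scavenger receptors higher in 9 of 15 and lower in 3, and iron and heme genes higher in 6 of 10. MHC class II genes were lower in 8 of 10 (median -0.69). CCL13 was higher by 1.08 (SE 0.15), whereas CCL2 was lower (-0.70, SE 0.23). The choice of the comparison cells by CXCL10 may also bear on genes outside the interferon list, MHC class II and CCL2 among them. Its part in those values was not tested. C15orf48 fell by 3.43. Of the lipid-associated list, SPP1 and TREM2 were the 2 genes of 13 that were lower.

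The treatment groups were compared next, to ask whether maraviroc altered the share or the transcripts of the members. Treatment was not used by the rule. Among macrophages that met every other limit, members made up 2.22%, 6.25%, 6.25% and 2.96% in the untreated mice of reaction 1 and 1.88%, 2.83% and 8.13% in those of reaction 2. In maraviroc mice the shares were 2.53%, 3.61% and 0.935% in reaction 1 and 3.03%, 18.01%, 9.17% and 7.57% in reaction 2. The groups overlapped, and 4 of the 7 maraviroc mice lay within the untreated range, with 1 below it and 2 above it. The means were 4.36% ± 2.46 without and 6.41% ± 5.88 with maraviroc (SD, 7 mice each), a difference of 2.05 percentage points (two-sided exact permutation test, p = 0.460). Permuted within reactions, p was 0.428.

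The reactions pointed in opposite directions. The difference was -2.06 points in reaction 1 (exact permutation p = 0.257) and 5.17 points in reaction 2 (exact permutation p = 0.200), where 35 regroupings allow no p under 0.0286. Without maraviroc mouse 2, the difference in reaction 2 was 2.31 points (exact permutation p = 0.400, 20 regroupings, smallest p 0.1), an alternative added after the data were seen. Without maraviroc mouse 2 of reaction 2 the pooled difference was 0.114 points (exact permutation p = 0.945). As a share of all filtered cells, members were at 1.17% ± 0.939 in untreated and 1.25% ± 0.872 in maraviroc mice (SD, n = 7 each), a difference of 0.0721 points (exact permutation p = 0.888). Its sign turned with cells thinned to 5000 UMIs (-0.134 points, exact permutation p = 0.797) and without maraviroc mouse 2 of reaction 2 (-0.184, exact permutation p = 0.695). The sign also turned without untreated mouse 1 (-0.0647) or 4 (-0.0121) of reaction 1, and without untreated mouse 1 (-0.0838) or 2 (-0.00702) of reaction 2. Among macrophages meeting every other limit, thinning took the difference from 2.05 to 0.537 points (exact permutation p = 0.821). The fewest members in a mouse were 2, so single shares had wide counting errors. A difference in share was not detectable with these mice.

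**Figure D5:**
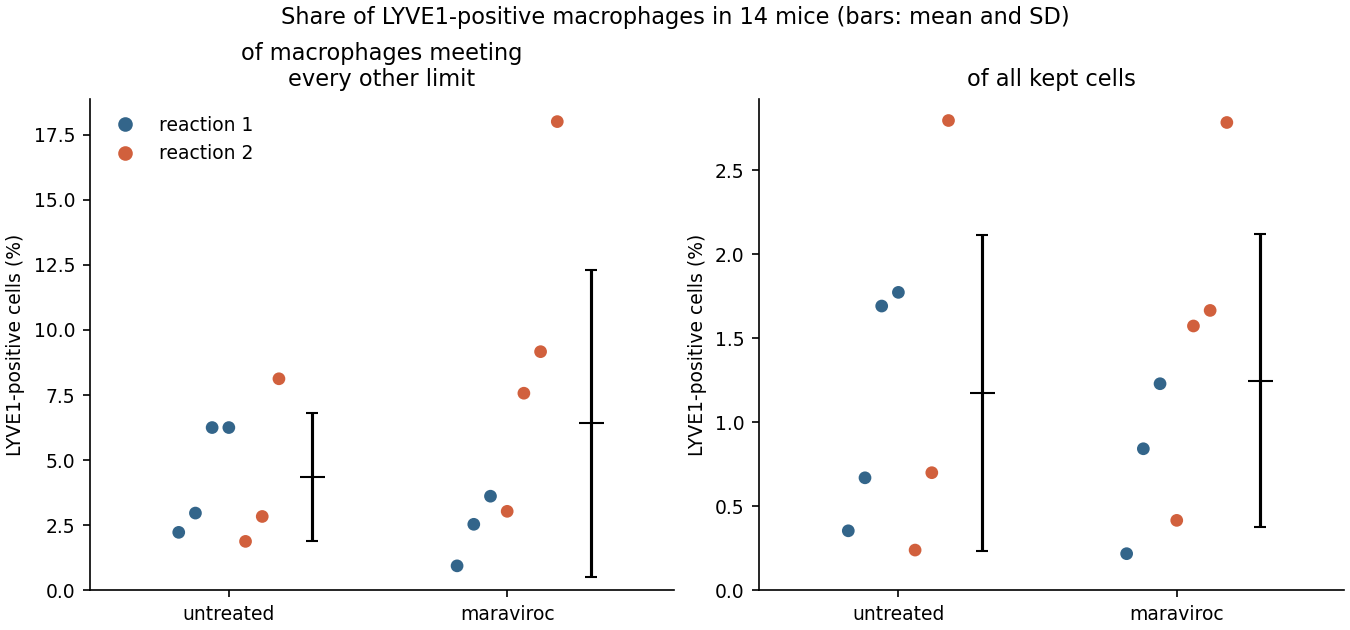
LYVE1-positive macrophages in each of 14 mice as a percent of macrophages that met every other limit (left) and of all filtered cells (right), colored by reaction, with the mean and SD of each treatment group. The highest share on the left, 18.01%, belongs to maraviroc mouse 2 of reaction 2, and the groups overlap in both panels.

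Gene levels in the members did not separate by treatment at the threshold. In 4 untreated and 5 maraviroc mice with at least 10 members, 0 of 3990 genes passed an adjusted p of 0.05 in edgeR (0%), and 100 had an unadjusted p under 0.05, of which 53 were higher with maraviroc. DESeq2 and limma-voom also called 0, with 70 and 114 genes at that unadjusted level. In simulated counts of this design, edgeR found 28 of 100 genes changed by 1 on the log2 scale. It found 93 of 100 changed by 2, so treatment effects near 1 could mostly be missed. A test of whether the treatment effect differed between reactions called 0 genes, with 227 at an unadjusted p under 0.05.

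The differences in the markers of the population were smaller than their standard errors. Scaled by TMM over the members alone, CCL18 was at 1998 ± 1020 in the 4 untreated mice and 2431 ± 920 in the 5 maraviroc mice (SD; log2 fold change 0.26, SE 0.33, edgeR adjusted p = 0.9999). FOLR2 and MAF differed by 0.02 (SE 0.26) and 0.03 (SE 0.21). CCL13 was at 2793 ± 940 and 2443 ± 772, and SPP1 at 6266 ± 5032 and 5533 ± 3597. No list had a gene past the threshold, and the median of the 17 tested resident macrophage genes was 0.02 against -0.00 over all genes.

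The genes of lowest unadjusted p are given as values. ACSL1, which activates fatty acids, was at 179 ± 10.7 in untreated and 301 ± 67.3 in maraviroc mice (log2 fold change 0.74, SE 0.23, edgeR adjusted p = 0.9999). Its untreated values were 177, 195, 171 and 174, and its maraviroc values 210, 322, 273, 394 and 304, so the groups did not overlap. The same held on the higher side for 23 of the 3990 tested genes (0.576%), and ACSL1 was named for its low p. PSTPIP2, the death ligand TNFSF10 and the NOD signaling kinase RIPK2 were also on the higher side, with log2 fold changes from 0.87 to 1.07. ENTPD1-AS1, LNPK, SVIL, SIRT2 and SYT1 were on the lower side, from -0.92 to -1.65, each with an adjusted p of 0.9999 in edgeR. SVIL, which encodes supervillin, had 1 untreated mouse at 905 CPM, and its log2 fold change of -1.65 was -0.71 without that mouse.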

How the data were processed

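Human CD45+ cells of 14 mice were measured in 2 droplet reactions. The authors deposited UMI counts per gene and hashtag, not normalized, for 36601 human genes (Cell Ranger 9.0.1, GRCh38, and Seurat 5.1.0, per the submitters' processing notes). The series labels name the mouse as organism, and mice were assigned to treatment by the names of their hashtags. Cells with over 600 and at most 6000 genes, under 12.5% mitochondrial UMIs and a top hashtag of at least 60% of hashtag UMIs were used, which left 16327 cells with a median of 8547 UMIs. Counts were summed per mouse and tested with edgeR 4.0.16 (TMM, filterByExpr, quasi-likelihood, Benjamini-Hochberg). DESeq2 1.42.0 and limma 3.58.1 were alternatives, under R 4.3.3. Shares were compared by exact permutation of mice. The tests were checked on simulated counts with 100 genes changed by 1 and 100 changed by 2 on the log2 scale. The treatment test found 28 and 93 of them, with 8 false calls. The test against LYVE1-0 macrophages found 71 and 97, with 7 false calls. The test against CXCL10-high macrophages found 88 and 100, with 14 false calls.

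The members and gene lists were chosen with earlier results of these data known. Named genes were the 12 largest rises and the 12 largest falls past an adjusted p of 0.05 with 1 sign in at least 90% of mice and at least 20 CPM on the higher side, for treatment the 5 lowest p per direction, and up to 4 genes a list, 2 by level and 2 by fold. Other genes were named after their values were seen. XIST and Y-linked genes, 27 in all, were left out. Protein and DNA sequences were not used here, as the reference at hand was not human. A few named genes and 1 gene list are not reported here.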

Additional observations from a re-analysis of the deposited data

Results flagged for a closer look

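In 8 of 54 groups of mice tested, the highest mouse lay further from the others than Dixon's limit allows, and chance flags about 1 group in 20. The values are CPM summed over the LYVE1-positive macrophages of a mouse and scaled among those sums alone. Of the flags, 5 came from maraviroc mouse 2 of reaction 2, the mouse with the most members: C4BPB stood at 188, NAV2 at 767, AC243829.4 at 277, DPP4 at 243 and SCN1A-AS1 at 121. CCDC141 stood at 354 in untreated mouse 2 of reaction 1. MMP12, low in most members, stood at 444 in maraviroc mouse 1 of reaction 1. SVIL stood at 905 in untreated mouse 2 of reaction 2. The causes were not tested.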

How the results depend on the processing

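Counts of members and calls moved with some choices, and the causes were not tested except where a setting leaves fewer genes or mice. A LYVE1 minimum of 1 UMI gave 302 members. The share among macrophages meeting every other limit differed by -2.06 points in reaction 1, 5.17 in reaction 2 and 0.537 with cells thinned to 5000 UMIs, against 2.05 in the main setting, and leaving out a mouse gave differences from 0.114 (without maraviroc mouse 2 of reaction 2) to 2.96 points. As a share of filtered cells the difference was -0.134 points with cells thinned to 5000 UMIs and -0.359 in reaction 1, and ran from -0.184 to 0.342 with each mouse left out. It was -0.0268 in reaction 2 without maraviroc mouse 2, a setting added after the data were seen, against 0.365 with it, and 0.157, 0.169 and 0.110 with a LYVE1 minimum of 1, of 3 and a mitochondrial share under 10%, against 0.0721 points in the main setting. For treatment, testing every gene with at least 1 count called 28 genes, reaction 1 by itself called 1, and leaving out a mouse called 0 to 1. The setting of at least 20 members per mouse could not be fitted for treatment, because 1 untreated mouse was left. Against LYVE1-0 macrophages the 1519 calls became 810 with at least 20 members per mouse (3 mice), 564 with cells matched on UMIs and 669 in reaction 1, and against CXCL10-high macrophages the 872 became 469 with at least 20 members (2 mice) and 217 in reaction 1. The fit without the mouse as a block called 767 higher and 734 lower genes against LYVE1-0 macrophages. Testing every gene with at least 1 count called 724 higher and 1431 lower against LYVE1-0 macrophages, where 717 and 802 were called, and 500 and 772 against CXCL10-high macrophages, where 412 and 460 were called. In reaction 2 the calls against LYVE1-0 macrophages were 549 higher and 504 lower. For the number of members and for calls summed over both directions, the other settings stayed within 1.5 times. Of the named genes' values under alternatives, 456 of 457 against LYVE1-0 macrophages held direction and side of the threshold, the exception being MRC2 with at least 20 members, as did 389 of 389 against CXCL10-high macrophages and 174 of 175 for treatment, the exception being SVIL, which passed when every gene was tested. Settings in which a gene was too low in counts to be tested are left out of these numbers. Most genes named against LYVE1-0 macrophages were thus not checked with cells matched on UMIs.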
